A study of Mus musculus with 14 samples.

Results

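This comparison asks what loss of Hspb8 did to gene expression in the left ventricle after 3 days of pressure overload. It sets 4 arrays of Hsp22 KO hearts against 4 arrays of Hsp22 WT hearts, 8 of the 14 arrays in the series, chosen by their titles. All came from left ventricles of male C57BL/6 mice 3 days after transverse aortic constriction (TAC), in which a suture around the aorta forces the ventricle to pump against a higher pressure. The 6 other arrays, 3 per genotype, came from hearts in a basal condition without overload, and serve here for reference levels. The labels give no age and no heart weight or pressure for any mouse, name no sham-operated group and do not say which part of the gene was removed. Nor do they state whether different arrays hold different animals, so p-values measure only the spread between these samples, which may be technical. Expression is given on the log2 scale for each probe set, the group of short probes that reads a transcript. After a filter on dim probe sets, 12260 of 18194 genes named on the array were tested, each through its brightest probe set, and all 24525 kept probe sets were tested separately.

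Hspb8 (Hsp22) is a small heat shock protein that is abundant in heart muscle. It binds the co-chaperone Bag3, and the complex hands misfolded and damaged sarcomere proteins to Hsp70 and to autophagy. An overloaded ventricle thickens, lays down collagen and elastic fibres through its fibroblasts, and takes up macrophages. Interferon-gamma from lymphocytes switches on guanylate-binding GTPases, chemokines and the immunoproteasome in the cells around it.

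The wild-type arrays after TAC were less alike than the knockout arrays. Across all genes tested, which are not independent replicates, wild-type pairs correlated at r of 0.918 to 0.986 and knockout pairs at 0.970 to 0.991. The SD between arrays was larger in wild type for 65.1% of genes, with a median SD of 0.207 in wild type and 0.166 in knockout. The first principal component of the 8 arrays held 54.4% of their variance, and on it TAC WT 1 and 2 lay at -41.4 and -24.3, TAC WT 4 at 10.5 and TAC WT 3 at 38.1. The knockout arrays lay inside that range, from -12.9 to 22.7. No pair of arrays held identical values. Array medians were 5.70 to 5.71 in the 4 wild-type arrays and TAC KO 4, and 5.76 in TAC KO 1, 2 and 3. With the medians set equal Fbln5 still passed, while the balance of directions over all genes moved, as given below. Cardiomyocyte markers were bright in both groups, with all 10 measured and none below the filter value of 5.75 in every array, and their median difference was -0.01. TAC WT 3 and TAC WT 4 stand apart for different genes, so results that rest on them are also given without them. Both were singled out from these same values. Calls made without either array therefore show how far a result depends on it and are no further support.

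Hspb8 itself was checked first. One of its 3 probe sets (1417013_at) read 11.29, 11.41, 11.09 and 12.29 in the 4 wild-type arrays and 5.02, 4.97, 4.69 and 4.27 in the 4 knockout arrays, a difference of log2 -6.78 (SE 0.26, adjusted p = 1.17e-08 in limma over all probe sets). A further one (1417014_at) differed by log2 -5.29 (adjusted p = 1.37e-08). Both groups were far apart on this pair, and every knockout value lay below the filter value. The remaining probe set (1456434_x_at) carries the suffix for probes shared with further sequences, and as the brightest it represented Hspb8 among the genes tested. It read 8.79 to 9.32 in wild type and 8.20 to 8.73 in knockout without overlap, and differed by log2 -0.60 (adjusted p = 0.274 over probe sets), short of the threshold.

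Other members of the Hspb8 chaperone system lay close together in the genotypes. None of 16 measured genes on the list of small heat shock proteins and the Bag3 complex passed, and Hspb8 alone reached an unadjusted p under 0.05. Bag3, the partner of Hspb8, read 11.66, 11.98, 11.32 and 11.60 in wild type and 11.65, 11.61, 11.69 and 11.26 in knockout (log2 -0.09, SE 0.14). The ranges overlap. The small heat shock proteins Hspb1 (log2 0.10, SE 0.16), Cryab (0.09, SE 0.11), Hspb6 (-0.10, SE 0.11) and Hspb7 (0.01, SE 0.11) and the autophagy receptor Sqstm1 (0.14, SE 0.09) did not pass either. The signs of Bag3, Hspb1 and Hspb7 turned when single arrays were left out, and that of Hspb7 also after median centring.

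Over all genes, 1 gene passed a Benjamini-Hochberg adjusted p of 0.05 as higher in the knockout (0.00816% of genes tested) and 0 passed as lower (0%). At an unadjusted p under 0.05, 414 genes (3.38%) were on the higher side and 584 (4.76%) on the lower side, so that 998 in all carried such a p. The median difference over all genes was log2 -0.02, so lower means were at least as common as higher ones. The shares of all genes with a lower or a higher mean were not counted. Counts of list members by the side of their mean, given below, therefore have no such share beside them. The 4 knockout arrays lay above all 4 wild-type arrays for 207 genes (1.69%) and below them for 282 (2.3%). The higher share of genes with an unadjusted p under 0.05 was 41.5% as deposited, 60% with quantile-normalized values and 24% with array medians set equal, so the balance of directions depends on the scaling. Counts of members given below are read against these shares. Each SE and p-value rests on 1 spread per gene, pooled over all 4 groups with the basal arrays included. Where wild type after TAC varied most, this understates the spread of its arrays. Cd274, given below, had an SD of 1.54 in TAC WT and 0.10 in basal WT, and an SE of 0.53. In a limma fit on the 8 TAC arrays alone, 350 genes were on the higher and 460 on the lower side at an unadjusted p under 0.05. Leaving out 1 array moved the count of genes that passed. It was 107 without TAC WT 3, 19 without TAC WT 4, 3 without TAC KO 4, 2 without TAC WT 1 and 0 without any 1 of TAC WT 2, TAC KO 1, TAC KO 2 or TAC KO 3. At probe set level 5 passed as higher (0.0204%) and 2 as lower (0.00815%), the last being the Hspb8 pair.

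**Figure D1:**
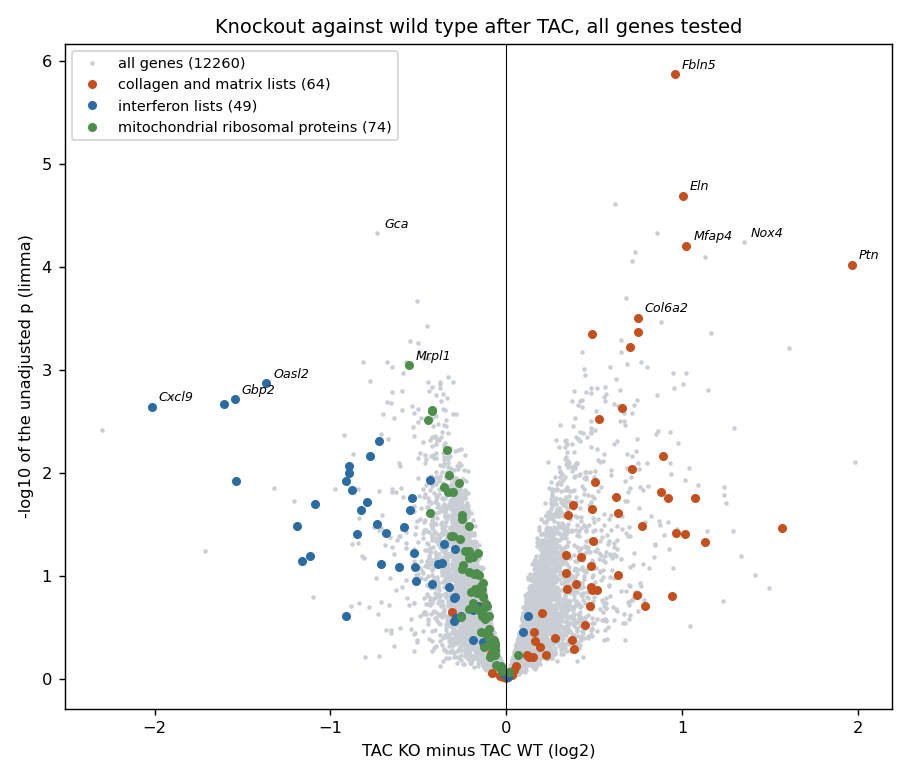
Each point is a gene, with its difference between TAC KO and TAC WT (log2) on the x axis and -log10 of the unadjusted limma p on the y axis; coloured points are the collagen and matrix lists, the 2 interferon lists and the mitochondrial ribosomal proteins. Fbln5 and Eln stand at the top right, the interferon genes spread to the left at moderate p, and the mitochondrial ribosomal proteins form a narrow band just left of 0.

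The gene that passed was Fbln5, which encodes fibulin-5, a protein that assembles elastic fibres by bringing tropoelastin and its crosslinking enzymes onto microfibrils. Fbln5 read 8.64, 8.65, 8.56 and 8.54 in wild type after TAC and 9.48, 9.61, 9.44 and 9.69 in knockout. Both groups were tight and did not overlap. The knockout mean, 9.56 ± 0.12 (SD, n = 4), was 1.94-fold that of wild type, 8.60 ± 0.06 (log2 0.96, SE 0.12, adjusted p = 0.0163). The call was lost without TAC WT 2 (adjusted p = 0.0737), TAC KO 1 (0.0659), TAC KO 2 (0.0591) or TAC KO 3 (0.0546), with the difference between log2 0.94 and 1.0 each time. In basal hearts the difference was log2 0.16, and after TAC the wild-type mean lay log2 -0.29 from the basal one while the knockout mean lay 0.50 above its own.

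Eln and Mfap4, further genes of the elastic fibre and its microfibrils, and the matrix gene Matn2 had non-overlapping groups at adjusted p of 0.1 to 0.106. Eln, elastin itself, read 8.04, 8.13, 7.65 and 8.28 in wild type and 9.05, 8.72, 8.99 and 9.35 in knockout (log2 1.0, SE 0.16, a 2.0-fold difference, adjusted p = 0.1). All 4 knockout arrays of Eln lay above the wild-type ones, and it passed without TAC WT 3 (adjusted p = 0.0278) or TAC WT 4 (0.019). Mfap4, a microfibril-associated protein, read 8.04, 8.42, 8.68 and 8.64 in wild type and 9.25, 9.83, 9.73 and 9.06 in knockout (log2 1.02, SE 0.18, adjusted p = 0.106). Its knockout arrays were higher in basal hearts too, by log2 0.81. Matn2, the matrix adaptor matrilin-2, had a difference of log2 0.71 (SE 0.13, adjusted p = 0.106). Mfap4 (adjusted p = 0.0278) and Matn2 (0.0404) passed without TAC WT 3. Mfap5, a microfibril glycoprotein, lay 0.71 higher on average but overlapped, with TAC KO 1 at 11.40 and TAC WT 4 at 11.73, and Lox, the enzyme that crosslinks elastin and collagen, spread from 8.50 to 11.48 in wild type against 10.58 to 11.76 in knockout.

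**Figure D2:**
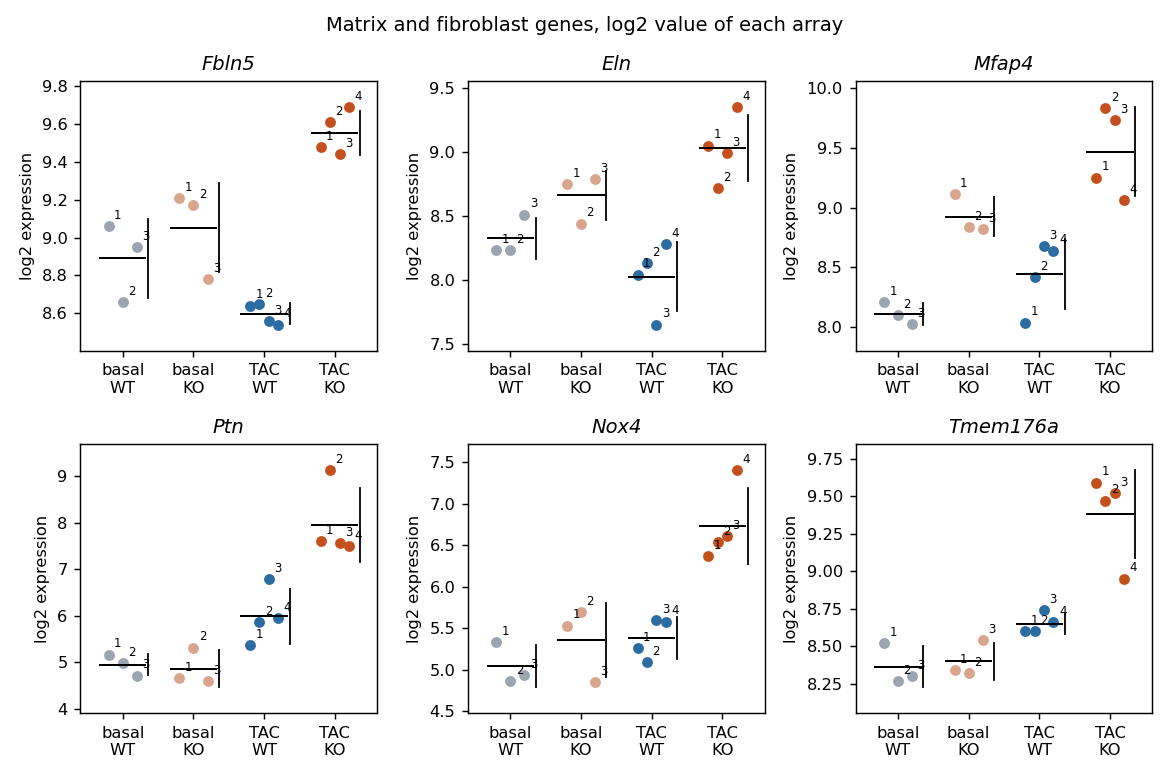
Log2 expression of 6 genes in each array of the 4 groups, numbered by replicate, with the group mean as a horizontal line and its SD as a vertical line; each panel has its own y axis, which does not start at 0. In all 6 panels the 4 TAC KO arrays lie above the 4 TAC WT arrays, with Fbln5 the tightest in wild type.

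Beyond the elastic fibre, the genes with the smallest p-values were of mixed function. Ptn, the heparin-binding cytokine pleiotrophin, read 5.36, 5.86, 6.78 and 5.95 in wild type and 7.61, 9.14, 7.56 and 7.50 in knockout (3.90-fold, log2 1.97, SE 0.36, adjusted p = 0.106 over genes). Its groups did not overlap, and a further probe set of Ptn (1416211_a_at) passed at probe set level (log2 1.81, adjusted p = 0.00861); its wild-type values, 5.33 to 5.69, are all below the filter value of 5.75, so this difference is a lower bound. Nox4, an NADPH oxidase that makes hydrogen peroxide, read 5.26, 5.09, 5.60 and 5.58 in wild type and 6.37, 6.54, 6.61 and 7.41 in knockout (log2 1.35, SE 0.23, adjusted p = 0.106). All 4 wild-type values of Nox4 are below the filter value, so this difference too is a lower bound. Ccn5, a matricellular protein of the CCN family, read 7.75, 8.0, 7.74 and 7.60 against 8.71, 8.41, 9.33 and 9.16 (log2 1.13, SE 0.20). In basal hearts Ccn5 differed by log2 0.19, and the probe set 1416211_a_at of Ptn by 0.62 (unadjusted p = 0.0309, adjusted p = 0.846), while Nox4 and the first probe set of Ptn were below the filter value in every basal array. Gxylt2, a xylosyltransferase of Notch (log2 0.62), Fxyd6, a modulator of the sodium pump (0.86), and Tmem176a (0.73) had adjusted p of 0.1 to 0.106, and so had Gca, the calcium-binding protein grancalcin, on the lower side. Gca read 8.13, 7.85, 7.87 and 8.26 in wild type and 7.28, 7.42, 7.30 and 7.17 in knockout (log2 -0.73, SE 0.12), again without overlap. With the Hedgehog factor Gli2 (log2 0.68) and Dmxl1 (-0.51), 13 genes had an adjusted p under 0.2, 11 of them higher in the knockout and 2 lower. Without TAC WT 3 the named genes of this paragraph passed, at adjusted p of 0.0278 (Ptn, Nox4, Gxylt2 and Gca), 0.028 (Gli2), 0.0287 (Tmem176a), 0.0341 (Fxyd6), 0.0377 (Ccn5) and 0.0484 (Dmxl1), and without TAC WT 4 none of them did.

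Probe sets tested singly added a few names. Thbs2, a matricellular thrombospondin, passed on the probe set 1422571_at, which read 7.46, 7.01, 7.52 and 7.25 in wild type and 8.24, 8.24, 8.13 and 8.15 in knockout (log2 0.88, adjusted p = 0.029). The brighter probe set that stood for Thbs2 in the tests per gene differed by 0.35, so its probe sets disagree in size. Ctse, the protease cathepsin E, passed on 1418989_at (log2 0.81, adjusted p = 0.0327), while its brightest probe set differed by 0.21. A probe set with no gene name (1457042_at) read 5.92 to 6.32 in wild type and 7.22 to 7.57 in knockout (log2 1.23, adjusted p = 0.0451).

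Collagens and other matrix genes were mostly higher in the knockout hearts, though few passed. Of 17 measured collagens, 9 had an unadjusted p under 0.05 on the higher side (52.9%, against 3.38% of all genes) and 0 on the lower side, 16 had a higher mean, and the median difference was log2 0.64 against -0.02 over all genes. Of 47 matrix modifiers and matricellular proteins, 18 were on the higher side at that level (38.3%), 0 on the lower, 1 passed, and the median was 0.45. The knockout arrays lay above every wild-type array for 3 of the collagens and 7 of the matrix genes, against 1.69% of all genes. Without TAC WT 1, the lowest wild-type array for 14 of the 17 collagens, the medians were 0.38 and 0.29. In basal hearts the knockout medians of these lists were 0.47 and 0.16 above wild type.

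The collagens fell into patterns that differ in their spread. Col6a2, of the microfibrillar collagen VI, read 10.44, 10.72, 10.48 and 10.62 in wild type and 10.97, 11.42, 11.36 and 11.50 in knockout (log2 0.75, SE 0.16, adjusted p = 0.272). Its partner chain Col6a1 (0.66) and the basement membrane collagen Col18a1 (0.75) did not overlap either. Col1a1, the main fibrillar collagen chain, read 10.01, 10.91, 12.45 and 11.50 in wild type and 12.12, 12.43, 12.30 and 11.88 in knockout (log2 0.96, SE 0.42, adjusted p = 0.589). Here TAC WT 3 was as high as any knockout array and TAC WT 1 was far below all of them. Cthrc1, a secreted protein of activated fibroblasts, read 6.58, 8.42, 10.96 and 10.00 against 10.34, 11.03, 10.49 and 10.38, and fibronectin (Fn1) read 9.44, 10.21, 12.40 and 11.16 against 11.63, 12.12, 11.98 and 11.54. TAC WT 3 was the highest wild-type array for 14 of the 17 collagens. Without TAC WT 3, Fn1 (log2 1.55, adjusted p = 0.0306), Col1a2 (1.24, adjusted p = 0.0294), Col14a1 (1.15, adjusted p = 0.0492) and Col18a1 (0.87, adjusted p = 0.0278) passed, while without TAC WT 4 they did not. Postn, the periostin of activated fibroblasts, read 11.64 to 13.29 in wild type and 12.72 to 13.48 in knockout (log2 0.48, adjusted p = 0.741).

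Timp2, an inhibitor of matrix metalloproteinases (log2 0.48), the thrombospondin Thbs3 (0.70) and the proteoglycan lumican (Lum, 0.53) had non-overlapping groups and adjusted p of 0.29 to 0.324. The Wnt pathway inhibitors Sfrp2 (log2 1.61, WT 5.69 to 6.93, KO 7.21 to 8.52) and Dact1 (0.65), the growth factor Igf1 (0.71), the integrin-related Itgbl1 (1.16) and Pdgfrl (0.88) were also separated without passing. Sfrp2 passed without TAC WT 3 (adjusted p = 0.0412). The cartilage protein Cilp lay 1.07 higher and biglycan (Bgn) 0.49 higher, both with overlap.

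Fibroblast markers were higher alongside these matrix genes. All 19 measured markers had a higher mean in the knockout, and the median difference was log2 0.49. On that side 8 had an unadjusted p under 0.05 (42.1%, against 3.38% of all genes). Their mean level, set against basal wild type, was 0.32 to 0.58 in the wild-type arrays and 0.83 to 1.04 in the knockout arrays, which do not overlap, and the log2 of their summed level was 15.13 to 15.79 and 15.80 to 16. Of the 19 markers, 3 are also on the collagen list and 4 on the matrix list. Tcf21, a transcription factor of resident cardiac fibroblasts, read 7.86 to 8.23 in wild type and 8.29 to 8.69 in knockout (log2 0.56, adjusted p = 0.304), and Pdgfra, their platelet-derived growth factor receptor, read 9.38 to 9.51 and 9.64 to 10.04. Basal knockout hearts lay 0.26 above basal wild type in the median of this list. More cells of a type and more RNA per cell cannot be told apart in whole-ventricle RNA. The part of fibroblast content in the matrix result was not tested.

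Many genes that interferon switches on read lower in the knockout arrays than in 3 of the 4 wild-type arrays. A pair of short DNA motifs are the textbook landing sites of this pathway. The gamma-activated site was searched here as TTCNNNGAA, and complexes with interferon regulatory factors bind the interferon-stimulated response element, searched as GAAANNGAAA on both strands. Of 12260 genes tested, 9861 had a RefSeq promoter window of GRCm38.p6 (250 bases before to 50 after the start). The first motif was in 8.13% of these and the second in 3.5%, and 11.1% held either. Of 13 genes with a window on the interferon-gamma list, 5 held the first motif, 7 the second and 9 either (69.2%). Of 26 type I genes 15 held either (57.7%) and of 13 genes of class I presentation 5 did (38.5%), against 0 of 13 collagens and 1 of 29 matrix genes (3.45%). Such a match describes the letters only. The stretches below show a match in 5 of the genes whose levels follow, each from RefSeq, on the strand of the gene and written 5′ to 3′, with the motif in capitals. The lower GTPase genes Gbp2, Gbp3 and Irgm1, the interferon-induced Ifit1 and the immunoproteasome subunit Psmb8 were chosen among those that passed without TAC WT 4. Ifit3 and Stat2 also passed without it and hold the second motif, but are not printed. Gbp3, Irgm1 and Ifit1 each hold a further match that is not marked.
Gbp2: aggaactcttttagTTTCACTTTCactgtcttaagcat
Gbp3: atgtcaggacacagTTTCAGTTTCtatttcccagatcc
Irgm1: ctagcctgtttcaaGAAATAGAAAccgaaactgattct
Ifit1: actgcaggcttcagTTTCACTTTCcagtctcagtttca
Psmb8: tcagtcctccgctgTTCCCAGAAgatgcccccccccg
The stretch of Psmb8 holds the gamma-activated site and the others hold the response element. They lie at chr3:142620590-142620627 (plus strand, motif 59 bases before the start of Gbp2), chr3:142559985-142560022 (plus, 45 bases before Gbp3), chr11:48871427-48871464 (minus, 30 bases before Irgm1), chr19:34640771-34640808 (plus, 104 bases before Ifit1) and chr17:34198084-34198120 (plus, 97 bases before Psmb8). Neither motif was found in the windows of Cxcl9, Psmb9, Tap1, Oasl2 and Xaf1.

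The interferon-gamma list had the most negative median of the 48 gene lists. Of 15 measured genes, 8 were on the lower side at an unadjusted p under 0.05 (53.3%, against 4.76% of all genes), 0 on the higher side and 0 passed, and the median difference was log2 -1.09. Gbp2, a guanylate-binding GTPase that attacks the vacuoles of intracellular microbes, read 10.54, 10.43, 9.79 and 8.13 in wild type and 8.29, 8.24, 7.88 and 8.30 in knockout (log2 -1.54, SE 0.40, adjusted p = 0.306). TAC WT 1, 2 and 3 lay above every knockout array and TAC WT 4 lay among them. Gbp3 read 9.46, 9.42, 8.79 and 6.91 against 6.95, 7.34, 6.72 and 7.14 (log2 -1.61, SE 0.42). Cxcl9, the chemokine that draws T cells and that interferon-gamma induces most selectively, read 8.89, 9.08, 8.37 and 5.85 against 6.22, 6.24, 6.01 and 5.65 (log2 -2.02, SE 0.54, adjusted p = 0.307). Irgm1, an immunity-related GTPase, read 9.59, 9.88, 9.46 and 8.20 against 8.38, 8.58, 8.18 and 8.41. TAC WT 4 was the lowest wild-type array for 13 of the 15 genes, against 2163 of all 12260. It lay at or below the highest knockout array for all 15, but also for 10048 of all 12260, so that count is not particular to this list. For Cd274, the checkpoint ligand PD-L1 (8.81, 8.68, 6.60 and 5.70 in wild type, 5.74 to 6.04 in knockout), and Gbp7 (9.53, 9.26, 7.84 and 7.06 in wild type, 7.23 to 7.47 in knockout), TAC WT 3 was also well below TAC WT 1 and 2.

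**Figure D3:**
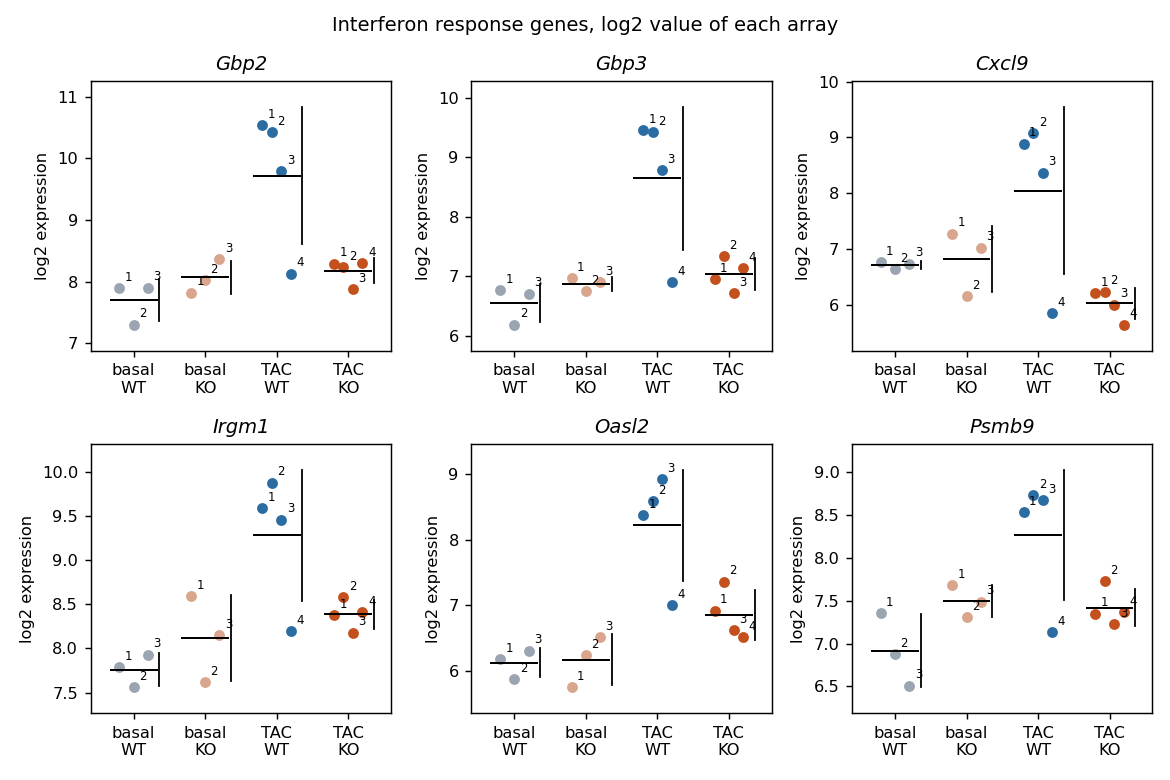
Log2 expression of 6 interferon response genes in each array of the 4 groups, numbered by replicate, with the group mean as a horizontal line and its SD as a vertical line; each panel has its own y axis, which does not start at 0. In every panel TAC WT 1, 2 and 3 lie above the TAC KO arrays, while TAC WT 4 lies at their level.

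Leaving out TAC WT 4, picked out by its low values for these same genes, changed the call of this group. The calls without it are thus no independent support, and with all arrays 0 genes of the list passed. Without TAC WT 4, 17 genes passed as lower (0.139% of genes tested) and 2 as higher (0.0163%), Fbln5 and Eln. Of the 17, 14 are on the 3 interferon lists described here. Cxcl9 then differed by log2 -2.75 (adjusted p = 0.000512), Gbp3 by -2.19 (0.000512), Gbp2 by -2.08 (0.00123) and Irgm1 by -1.26 (0.0263). The GTPase gene Ifi47, which is on none of the lists, differed by -1.44 (0.00587). The median of the interferon-gamma list went to -1.69. Without TAC WT 2 it was -0.71 and without TAC WT 3 -1.13, and without TAC WT 3, of 66 measured genes on the 3 lists 0 passed. Set against basal wild type, the mean of the interferon-gamma list was 1.52, 1.73, 1.06 and -0.31 in TAC WT 1 to 4 and -0.18 to 0.31 in the knockout arrays. In basal hearts the knockout median lay 0.32 above wild type. Ifng itself had no probe set above the filter and read 3.60 to 3.86 after TAC. Of 20 markers of T and NK cells 4 were measured, and the log2 of their summed level was 8.03 to 8.15 in wild type and 7.98 to 8.30 in knockout.

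Genes of the type I interferon response, antiviral proteins that interferon-alpha and -beta induce, had a similar order of arrays. Of 34 measured genes 33 had a lower mean in the knockout, with a median of log2 -0.48. At an unadjusted p under 0.05, 15 were on the lower side (44.1%, against 4.76% of all genes), 0 were on the higher side, and 0 passed. Oasl2, of the oligoadenylate synthetase family, read 8.37, 8.59, 8.92 and 7.0 in wild type and 6.92, 7.36, 6.62 and 6.52 in knockout (log2 -1.36, SE 0.34, adjusted p = 0.299). TAC WT 4 lay within the knockout range for Oasl2 and was the lowest wild-type array for 32 of the 34 genes. Ifit3, which limits translation of viral RNA with its partners, read 9.23, 9.31, 9.44 and 7.61 against 7.99, 8.29, 8.06 and 7.94 (log2 -0.83). Rsad2, the antiviral enzyme viperin (log2 -0.90), Xaf1 (-0.91), Ifit1 (-0.88), Rtp4 (-0.79), Ifit2 (-0.77) and Parp14 (-0.72) had lower means without passing. Without TAC WT 4, 7 of the 34 passed as lower, among them Oasl2 (log2 -1.77, adjusted p = 0.00754), Ifit3 (-1.26, adjusted p = 0.00806) and the transcription factor Stat2 (-0.78, adjusted p = 0.0318), and the median was -0.73. Without TAC WT 3 the median was -0.27. On each of the 3 interferon lists 0 genes had every knockout array below every wild-type array, against 2.3% of all genes. Some interferon-related genes on none of the lists, chosen after their values were seen, stood apart from the order of arrays above. Helz2, a helicase coactivator (7.37 to 8.14 in wild type, 6.97 to 7.30 in knockout), Ube2l6, the ISG15-conjugating enzyme (5.85 to 6.23 and 5.45 to 5.61), and Irf2, a regulator that competes at response elements (6.48 to 6.76 and 6.02 to 6.28), did not overlap, TAC WT 4 included, at adjusted p of 0.283 to 0.296.

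Antigen presentation on MHC class I, which interferon-gamma raises, followed the GTPases. Of 17 measured genes, 7 were on the lower side at an unadjusted p under 0.05 (41.2%, against 4.76% of all genes). On the higher side there were 0, and 0 passed, with a median of log2 -0.40. The immunoproteasome subunit Psmb9 read 8.53, 8.73, 8.67 and 7.13 in wild type and 7.35, 7.73, 7.23 and 7.37 in knockout (log2 -0.84, adjusted p = 0.498). Its partners Psmb8 (-0.71) and Psmb10 (-0.42), the peptide transporter Tap1 (-0.72) and the class I transactivator Nlrc5 (-1.21) had the same order, with TAC WT 4 the lowest wild-type array. Without TAC WT 4, Tap1 (log2 -1.16, adjusted p = 0.0045), Psmb8 (-1.08, adjusted p = 0.0114) and Psmb9 (-1.22, adjusted p = 0.0182) passed. The regulator Irf1 read 9.49, 9.62, 9.03 and 8.36 in wild type and 8.42 to 8.73 in knockout (log2 -0.55), and Cxcl10 read 5.82, 6.75, 8.23 and 6.30 against 5.80 to 6.41, highest in TAC WT 3. MHC class II genes did not share the direction, with 9 of 9 means higher in the knockout and a median of 0.38, which was 0.77 without TAC WT 3, 0.10 without TAC WT 4 and 0.38 in basal hearts.

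Macrophage markers were higher on average in the knockout, with TAC WT 3 as the exception. Of 24 measured, 22 had a higher mean, and the median was log2 0.41. At an unadjusted p under 0.05, 2 were on the higher side (8.33%, against 3.38% of all genes), and 0 passed. Set against basal wild type, their mean was 0.69, 0.99, 2.63 and 1.16 in TAC WT 1 to 4 and 1.64 to 1.88 in the knockout arrays. TAC WT 3 held the highest wild-type value for 23 of the 24. Cd68, a lysosomal glycoprotein of macrophages, read 8.46, 8.82, 10.55 and 9.14 in wild type and 9.61, 9.41, 10.04 and 9.58 in knockout (log2 0.42, SE 0.33, adjusted p = 0.797). Cd163, the haemoglobin scavenger receptor of resident macrophages, read 8.0, 7.63, 7.36 and 8.29 against 8.85, 8.33, 8.89 and 9.0 (log2 0.95, SE 0.23, adjusted p = 0.299). Cd163 was the one marker without overlap, and TAC WT 3, high for the others, was lowest for it.

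**Figure D4:**
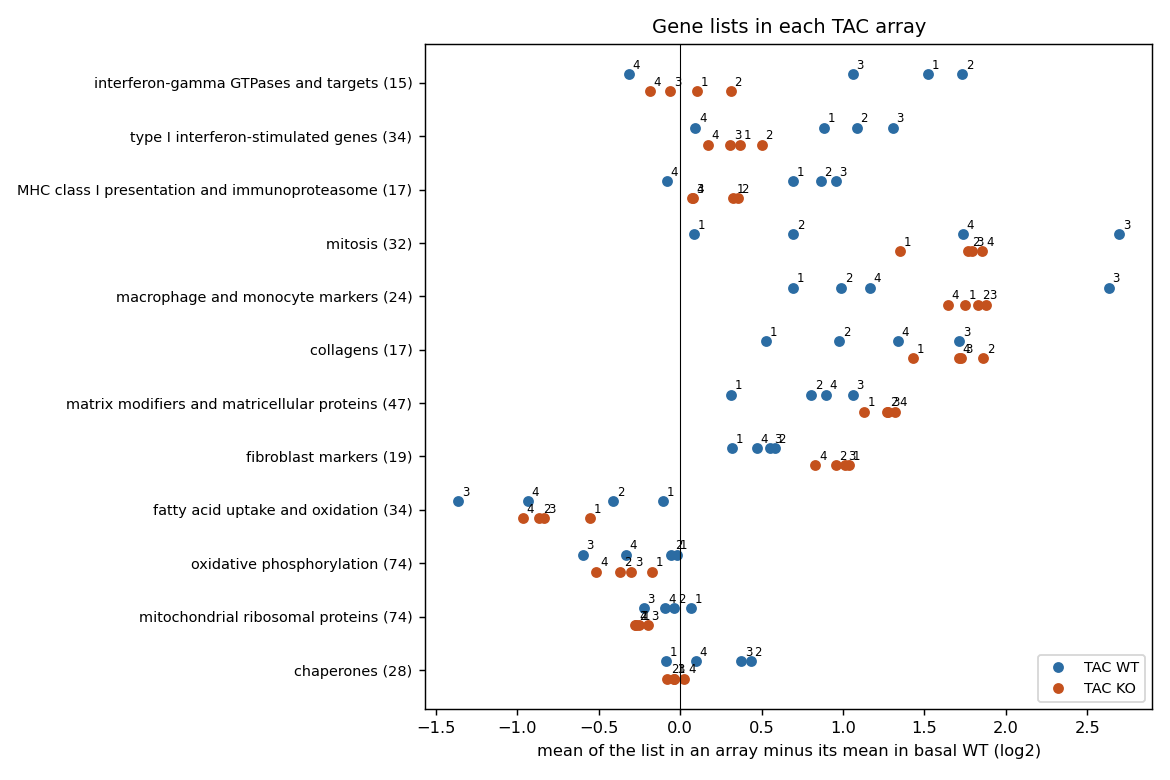
Mean of each gene list in each TAC array minus its mean in the 3 basal WT arrays (log2, x axis), for 12 lists with the number of measured genes in brackets; blue points are TAC WT and orange points TAC KO, numbered by replicate. TAC WT 4 lies below every knockout array on the 3 interferon lists, TAC WT 3 is the highest on mitosis and macrophage markers, and the fibroblast markers are the one list shown besides the matrix genes whose groups are apart.

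Leaving out TAC WT 3 moved the macrophage and matrix calls. TAC WT 3 was the highest wild-type array for 23 of the 24 macrophage markers, 14 of the 17 collagens and 25 of the 47 matrix genes. This compares with 4316 of all 12260 genes. Leaving it out raises the difference for such genes, so the calls without it are no independent support. Without TAC WT 3, 88 genes passed as higher in the knockout (0.718% of genes tested) and 19 as lower (0.155%). The 88 include 8 macrophage markers, 5 matrix genes and 3 collagens. Cd68 then differed by log2 0.85 (adjusted p = 0.0321), the galectin Lgals3 by 1.31 (0.0404), the receptor Adgre1 by 1.08 (0.0283), the complement subunit C1qb by 0.77 (0.0321) and the lipid receptor Trem2, on no list here, by 0.89 (0.0278). The median of the macrophage list, 0.41 with all arrays, went to 0.81 without TAC WT 3 and to 0.19 without TAC WT 1. Mitosis genes had a median of 0.41, or 0.86 without TAC WT 3, and their mean above basal wild type was 0.08, 0.70, 2.70 and 1.74 in TAC WT 1 to 4 and 1.35 to 1.86 in the knockout arrays. Mki67, the proliferation marker, read 6.63, 7.98, 10.19 and 9.32 against 8.50 to 9.40. The wild-type arrays thus spanned the knockout range on both sides for macrophage and mitosis genes.

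Most genes of the mitochondrial translation machinery had a slightly lower mean in the knockout. Of 74 measured mitochondrial ribosomal proteins, 72 had a lower mean, 17 were on the lower side at an unadjusted p under 0.05 (23%, against 4.76% of all genes), 0 were on the higher side, 0 passed, and the knockout arrays lay below every wild-type array for 9 of the 74, against 2.3% of all genes. The median difference was log2 -0.15, against -0.02 over all genes, whose quartiles were -0.13 and 0.10. The balance of directions over all genes moved with the scaling, as given above. Counts of means this slightly lower may move with it too. Mrpl1, of the large subunit, read 8.47, 8.44, 8.11 and 8.72 in wild type and 7.80, 7.78, 7.88 and 8.06 in knockout (log2 -0.56, SE 0.13, adjusted p = 0.296). Mrpl18 (10.61 to 11.00 and 10.19 to 10.43), Mrpl19 (9.35 to 9.45 and 8.78 to 9.11) and Mrpl47 (9.87 to 10.47 and 9.61 to 9.85) did not overlap. Without TAC WT 3, Mrpl1 (log2 -0.66, adjusted p = 0.028) and Mrpl47 (-0.57, adjusted p = 0.0287) passed, as did Cox10, which builds the haem of cytochrome oxidase (-0.52, adjusted p = 0.0278). Mitochondrial regulators had 5 of 31 on the lower side (16.1%, against 4.76% of all genes), 29 lower means and a median of -0.23. Among them the DNA polymerase Polg read 8.29 to 8.55 in wild type and 7.72 to 8.22 in knockout, the transcription factor Tfam 8.94 to 9.33 and 8.78 to 8.88, and the nuclear receptor Ppard 6.43 to 6.62 and 5.94 to 6.37, each without overlap. Of the enzymes of energy metabolism, 65 of 74 oxidative phosphorylation genes, 26 of 34 of fatty acid uptake and oxidation and 27 of 30 of the TCA cycle had lower means. Of these 3 lists 0 genes were on the lower side at an unadjusted p under 0.05. The medians were -0.08, -0.09 and -0.11, all inside the quartiles of all genes. Without TAC WT 3 the medians were -0.20, -0.28 and -0.26, and -0.21 for the mitochondrial ribosomal proteins.

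Chaperones outside the Hspb8 complex lay mostly on the lower side, with 23 of 28 means lower. Of these 28, 7 were on the lower side at an unadjusted p under 0.05 (25%, against 4.76% of all genes), 0 on the higher side, 0 passed, and the median was log2 -0.21. Set against basal wild type, their mean was -0.08, 0.44, 0.38 and 0.10 in TAC WT 1 to 4 and -0.08 to 0.03 in the knockout arrays. TAC WT 1 lay below every knockout array in this mean, and was the lowest wild-type array for 16 of the 28, against 3772 of all 12260. Dnajb2, an Hsp70 co-chaperone, read 9.65, 9.78, 9.45 and 9.49 in wild type and 9.07, 9.19, 9.11 and 9.12 in knockout (log2 -0.47, SE 0.11, adjusted p = 0.296). Hspa4l (-0.42) and the mitochondrial chaperonin Hspe1 (-0.33) did not overlap between groups either, whereas Hsph1 (-0.72) did. In basal hearts the direction differed, with a knockout median 0.20 above wild type and Hsph1 at log2 0.90. Unfolded protein response genes had 1 of 28 and the autophagy and lysosome list 1 of 31 on the lower side, Ern1 (log2 -0.27) and Atg5 (-0.34), and the proteasome list had 0 of 34 on either side.

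Of the markers of hypertrophy, as many had a higher as a lower mean in the knockout after TAC. Of 27 measured genes of the hypertrophy and fetal program, 0 reached an unadjusted p under 0.05, 13 means were higher and 13 lower, with differences from log2 -0.80 to 1.04, and the median was 0. Nppb, the natriuretic peptide of the loaded ventricle, read 13.83, 14.24, 14.20 and 14.41 in wild type and 14.13, 14.02, 14.22 and 14.32 in knockout (log2 0.00, SE 0.12). Myh6, the adult myosin heavy chain, differed by -0.01 (SE 0.10), and Nppa, which spread more, by 0.10 (SE 0.31). Myh7, the fetal heavy chain, read 13.28, 13.19, 10.24 and 13.21 against 13.45, 12.73, 12.98 and 12.72 (log2 0.49, SE 0.54), with TAC WT 3 far below the other 7 arrays, and differed by -0.26 without TAC WT 3. Rcan1, an inhibitor and readout of calcineurin, read 10.82 to 12.28 in wild type and 11.22 to 11.41 in knockout (-0.41, adjusted p = 0.741). Of 23 adult contractile genes 0 reached that level.

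Signalling through Stat3 and nitric oxide was examined because both have been studied with Hspb8. Stat3 read 11.43, 11.70, 11.47 and 11.62 in wild type and 11.45, 11.50, 11.51 and 11.77 in knockout (log2 0.00, SE 0.12). Of 37 measured genes of gp130 and Stat3 signalling, 2 were on the lower side at an unadjusted p under 0.05, led by the transcription factor Cebpb (-0.40), and 0 on the higher side. Nos3, the endothelial synthase, differed by log2 -0.06 (SE 0.11), and Nos2, the inducible one, was dim, at 4.51 to 4.70 in wild type and 4.80 to 5.06 in knockout, and was not tested. Ddah2, which clears an inhibitor of these synthases, read 8.68 to 8.82 in wild type and 9.08 to 9.21 in knockout (log2 0.37, adjusted p = 0.306). Of 20 measured genes of nitric oxide synthesis and cyclic GMP, 3 were on the higher side at an unadjusted p under 0.05 (15%, against 3.38% of all genes), 0 on the lower and 0 passed; besides Ddah2 these were its paralogue Ddah1 (log2 0.76) and the neuronal synthase Nos1 (0.20). Sign changes under other settings were seen for Stat3, Nos3, Nppa, Nppb, Myh6 and Myh7.

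Kcna5 had the smallest p on the list of calcium handling and ion channels. Kcna5, a potassium channel of repolarisation, read 9.39, 9.59, 9.02 and 9.64 in wild type and 9.11, 8.67, 8.52 and 8.08 in knockout (log2 -0.81, SE 0.19, adjusted p = 0.296). The groups overlap only through TAC WT 3 and TAC KO 1, and without TAC WT 3 Kcna5 passed (log2 -0.94, adjusted p = 0.037), as did the potassium channel Kcnk3 (-0.63, adjusted p = 0.0278, against -0.42 with it). Of 34 measured genes of calcium handling and ion channels 3 were on the lower side and 2 on the higher at an unadjusted p under 0.05 (8.82% and 5.88%).

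Of the markers of other cell types, 0 passed. Endothelial markers had 17 of 20 means lower (median -0.13, 2 on the lower and 1 on the higher side at an unadjusted p under 0.05), though Vwf, the clotting factor carrier, read 8.08 to 8.90 in wild type and 8.96 to 9.50 in knockout. Smooth muscle and pericyte markers had a median of 0.04 with Acta2 at log2 0.45, and neutrophil markers 0.38, with 5 of 5 means higher. Epicardial and mesothelial markers had a median of 0.43 over 8 genes, with 2 on the higher and 1 on the lower side at an unadjusted p under 0.05. Adipocyte markers had a median of 0.14 over 6 genes, and Adipoq, the fat cell hormone adiponectin, read 4.83, 5.10, 4.27 and 4.14 in wild type and 6.18, 4.18, 5.97 and 7.0 in knockout (log2 1.25, unadjusted p = 0.0196, adjusted p = 0.514), a lower bound since all 4 wild-type values are below the filter value. Atrial cardiomyocyte markers ran from 14.03 to 14.74 in wild type and 14.25 to 14.89 in knockout as the log2 of their summed level. Their mean log2 level, set against basal wild type, spread more widely. It was -2.89 to -0.98 in the wild-type arrays, lowest in TAC WT 4, and -2.73 to -1.27 in the knockout arrays. Pam, a peptide-amidating enzyme on that list, read 10.62, 9.35, 9.23 and 9.55 in wild type against 10.51 to 10.82 in knockout. The part of these cells in the results was not tested.

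**Figure D5:**
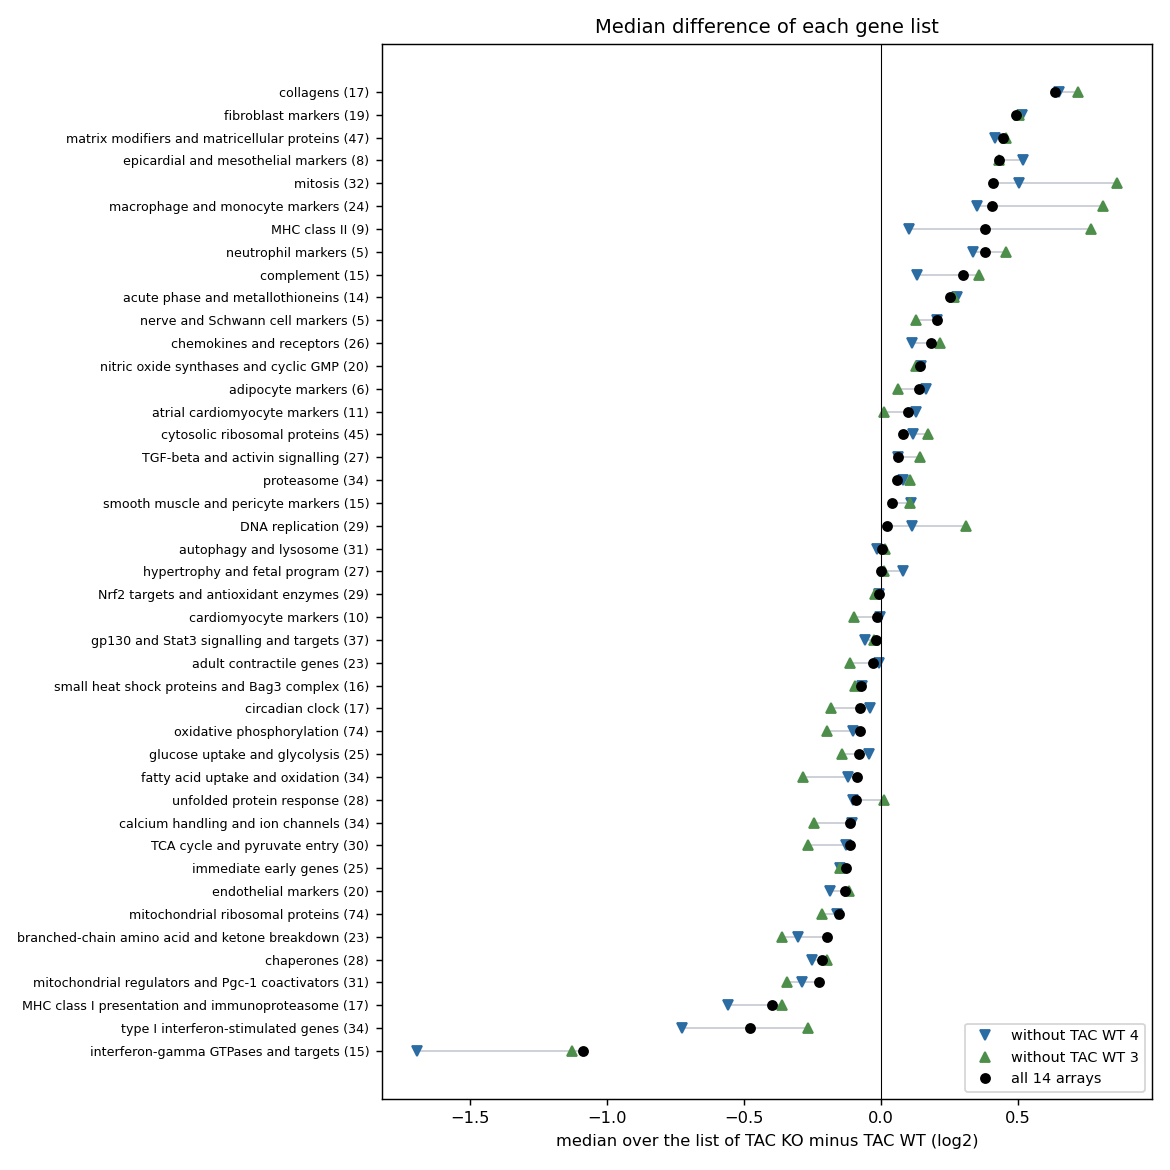
Median over each gene list of the difference between TAC KO and TAC WT (log2, x axis), with all 14 arrays (circles), without TAC WT 3 (upward triangles) and without TAC WT 4 (downward triangles); the number of measured genes is in brackets. Collagens at 0.64 and interferon-gamma targets at -1.09 are the ends of the order with all arrays, and the interferon-gamma, mitosis, macrophage and MHC class II lists move most when 1 of these arrays is left out. Lists with under 5 measured genes are not drawn.

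The same genotypes in basal hearts, which share no array with the TAC groups, gave 0 genes that passed (0%) and 707 with an unadjusted p under 0.05 (5.77%) in limma. A direct test of whether the knockout difference after TAC was other than the basal one gave 0 genes (0%) at an adjusted p of 0.05 and 952 at an unadjusted one (7.77%). With all arrays, no gene named here is therefore shown to differ between genotypes after TAC alone. Without TAC WT 4, 8 genes passed this test of the difference, all on the lower side, and without TAC WT 1 a further test gave 1 gene, on the higher side.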

How the data were processed

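RNA from left ventricles was measured on Affymetrix expression arrays with 45101 probe sets, of which 64 were controls and left out. The deposited values are log2 signals made by the authors with RMA (background correction, normalization and a summary per probe set), per the submitters' processing notes. The version of RMA, and whether all arrays went through it together, are not stated in the labels. Values run from 2.93 to 14.81. Precision is limited by the number of arrays.

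Probe sets were named through the platform annotation, with 34958 having 1 gene symbol, 932 several and 9211 none; 34754 of the symbols matched the reference table by gene number and 204 did not. A probe set was kept when above the table median (log2 5.75) in at least 3 arrays, and the kept probe set with the highest mean stood for its gene. Group means of the 4 groups were fitted to all 14 arrays in limma 3.58.1 (R 4.3.3), which gave 10 residual and 3.43 prior degrees of freedom, with Benjamini-Hochberg adjustment over all genes or all probe sets. A fold is given only where both group means were above the filter value. The model was tested on simulated data.

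The array file names in the labels carry 1 mark for all TAC arrays and other marks for the basal arrays, so that TAC and this mark cannot be told apart, while the TAC genotypes are compared within 1 mark. The comparison members and the 48 gene lists were chosen with earlier results of these data known. Named genes are Hspb8, Bag3, Myh6, Myh7, Nppa, Nppb, Stat3, Nos2 and Nos3, the genes and probe sets that passed without overlap between groups (the 15 largest per direction), and per list up to 4 passing members or else the 1 with the smallest p; the 30 smallest p-values and 61 further genes were added after their values were seen. Alternatives were other filters, normalizations, variance models, probe set summaries, a replicate block and leaving out each array.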

Additional observations from a re-analysis of the deposited data

Results flagged for a closer look

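In 30 of 286 groups of 4 TAC arrays examined, each a named gene in one genotype, 1 array stood far from the other 3, its gap to the nearest taking a share of the whole range above Dixon's critical value. Chance alone marks about 1 in 20 groups, but most of these genes were chosen after their values were seen, so the number of such groups is not to be read against that share. TAC WT 3 was the array in 7 of these, TAC WT 4 in 6, TAC KO 1 in 5, TAC KO 2 in 4, TAC WT 2 and TAC KO 4 in 3 each, and TAC WT 1 and TAC KO 3 in 1 each.

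TAC WT 4 was the low array for the interferon response genes Stat2 (share 0.970), Psmb10 (0.929), Ifit3 (0.885), Tap1 (0.880), Psmb9 (0.875) and Xaf1 (0.853). TAC WT 3 was low for Myh7 (0.970), the immunoglobulin gene Ighm (0.923) and Cox10 (0.841), and high for Gli2 (0.968), the proteasome subunit Psmd2 (0.90), Gxylt2 (0.846) and the macrophage receptor Adgre1 (0.844). TAC WT 2 was high for Dmxl1 (0.947), Col6a1 (0.905) and Tcf21 (0.838), and TAC WT 1 low for Dact1 (0.842).

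Among the knockout arrays, TAC KO 1 was high for Cebpb (0.917), Bex1 (0.910), Tfam (0.90) and Timp2 (0.875) and low for Mfap5 (0.844). TAC KO 2 was high for Hddc3 (0.943) and Ptn (0.933) and low for Mrpl47 (0.917) and Cox10 (0.833). TAC KO 4 was low for Gxylt2 (0.941), Col14a1 (0.888) and the clock gene Per1 (0.887), and TAC KO 3 was low for Gbp2 (0.857).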

How the results depend on the processing

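The count of genes that passed, 1 in the reported setting, was 2 after quantile normalization, 5 when the probe sets of a gene were averaged, 3 without s and x class probe sets and 2880 with array weights (0.187 for TAC WT 3, 4.73 for TAC KO 3), and 0 to 107 when 1 array was left out. For probe sets, 7 in the reported setting, it was 4 with a filter above the 75th percentile, 4 in a fit on the 8 TAC arrays alone, 2956 with array weights and 2 to 168 when 1 array was left out. The test of the difference between the TAC and basal genotype effects, 0 as reported, gave 166 with array weights and 0 to 8 when 1 array was left out. With the replicate number as a block, 0 genes passed and Fbln5 had an adjusted p of 0.0964; same-numbered arrays correlated at 0.594, -0.060, -0.072 and 0.489 in their deviations, so the numbers were not taken to pair the arrays.

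Of 2538 alternative values of 143 named genes, 2328 kept direction and side of the threshold, 173 passed where they had not, 5 lost the call (all Fbln5) and 32, in 12 genes, turned direction; the cause was not tested. The turned values were 0.0062 for Myh6 after quantile normalization; -0.03, -0.04 and -0.04 for Hspb7, Nppb and Stat3 after median centring; -0.0005 for Hdc, -0.0781 for Hspb7, -0.103 for Myh7, -0.0133 for Nppb and -0.1285 for Stat3 with array weights; and -0.0342 for Hspb7 and -0.055 for Stat3 with the mean of probe sets. Leaving out 1 array gave -0.0558 to 1.1308 for Mki67, -0.0983 to 0.045 for Myh6, -0.1375 to 0.2958 for Nppa, -0.1108 to 0.0825 for Nppb, -0.0683 to 0.0508 for Stat3, -0.1942 to 0.0258 for Bag3, -0.1008 to 0.0333 for Nos3, -0.2567 to 0.7567 for Myh7, -0.72 to 0.0125 for Alas2, -0.0542 to 0.07 for Hspb7 and -0.0592 to 0.2242 for Hspb1.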

Other observations

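A few genes outside the lists, chosen after their values were seen, had values that split the knockout arrays. Hddc3, a hydrolase of the alarmone type, read 7.88, 7.65, 7.94 and 7.70 in wild type after TAC and 5.38, 7.54, 5.26 and 5.39 in knockout (log2 -1.90, unadjusted p = 0.00181 in limma). TAC KO 2 lay near the wild-type arrays and the other 3 far below. Stbd1, a glycogen-binding protein, read 6.98, 8.56, 8.68 and 9.23 against 4.64, 8.18, 5.19 and 8.59, with TAC KO 1 and TAC KO 3 low, and its knockout mean was lower in basal hearts too (log2 -2.05). Bex1, a small adaptor protein, read 7.98, 9.14, 6.51 and 5.72 against 6.46, 4.65, 4.58 and 4.47 (log2 -2.30), and its groups overlap through TAC KO 1.

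Haptoglobin (Hp), which binds free haemoglobin, read 7.17, 7.69, 7.79 and 6.34 in wild type and 9.35, 6.97, 8.42 and 9.20 in knockout (log2 1.24, adjusted p = 0.508 in limma). TAC KO 2 lay within the wild-type range and the other 3 knockout arrays above it. The mean log2 level of adipocyte markers was also lowest in TAC KO 2 and above the wild-type range in the other 3 knockout arrays. Relative to basal wild type, this mean over the 6 measured was -0.02, -1.09, -0.10 and 0.30 in TAC KO 1 to 4 and -1.04 to -0.34 in wild type. By the log2 of their summed level, TAC KO 4 (11.76) alone lay above the wild-type range of 10.75 to 11.62, and TAC WT 3 was lowest. The epithelial keratin Krt19 had the same order as Hp between TAC KO 2 and the others (6.51, 5.29, 6.36 and 5.88 in TAC KO 1 to 4, 5.08 to 5.67 in wild type). The part of these cells in the Hp values was not tested.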
